A study of Homo sapiens with 6 samples.

Results

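The interferon-stimulated genes described here are 48 listed human genes, which were measured in J82, an established human bladder cancer cell line. The list was given by name and was grouped by role into 28 antiviral effectors, 10 RNA sensors and double-stranded RNA enzymes, and 10 genes of the ubiquitin-like system. Of the 48, 38 had a mean of at least 20 estimated counts per library (19 effectors, 9 sensors and 10 ubiquitin-like genes), among 13457 such genes of 52989 in all. Just under this minimum lay RSAD2, with a mean of 19.2 counts, and DHX58, with 17.5. Just above it lay EPSTI1, with 38.3, and MX2, with 52.0.

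J82 cells of 2 kinds were compared: tet-control cells and tet-ZFP36L1 cells, which the labels describe as overexpressing. ZFP36L1 recognises AU-rich sequences in the 3' UTRs of mRNAs and speeds the degradation of those mRNAs. The 6 groups were tet-control cells without doxycycline (0 h) and after 6 h and 24 h with doxycycline, and tet-ZFP36L1 cells at the same 3 times. Doxycycline was used at 1 µg/mL, and both lines received it. Each group had 1 library, so no difference has a replicate check and none was tested. The sources used here do not say whether either line is a clone or a pool.

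Interferons are secreted proteins that cells release on sensing viral nucleic acid. They bind receptors that activate kinases of the JAK family, and a complex that contains STAT2 and IRF9 then binds interferon-stimulated response elements, short promoter sequences built on repeated GAAA, and many of the genes turned on there block steps of viral replication. The effectors act on viral RNA, proteins or membranes. The sensors recognise double-stranded or 5'-triphosphate RNA, and the ubiquitin-like system centres on ISG15, a small protein that is joined to other proteins.

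The promoters of the members show the sequence that defines such elements. RefSeq promoter windows (250 bases before to 50 bases after a gene start, GRCh38.p14) were found for 40 of the 48 members, DDX58 under its name RIGI, and not for OASL, OAS2, MX2, IFIT2, IFITM2, USP18, DHX58 and TRIM22. The letters searched were GAAA, any 2 bases, then GAAA, on either strand. They occurred in 30 of the 40 members (75%), and 16 members held more than 1 copy, some of them overlapping. Among all 27305 genes with a window the share was 4.38%. The runs below are shown because their genes span the range of changes described further on. Capitals mark the repeat, which reads as its reverse complement (TTTC) where it lies on the strand opposite to the gene. Distances are to the first base of the repeat. IFIT3, MX1 and PARP9 have windows at more than 1 gene start, and the distance given for each is to 1 of them. Each run is 26 bases, read 5' to 3' on the strand of its gene.
ISG15 (chr1:1013382-1013407, plus strand, 107 bases before the start): gggaaaggGAAACCGAAActgaagcc
IFI44 (chr1:78649763-78649788, plus strand, 60 bases before one start and 18 before another): acactgagTTTCAGTTTCctttctct
IFIT1 (chr10:89392512-89392537, plus strand, 103 bases before the start): ctttccccTTTCGGTTTCcctaggtt
IFIT3 (chr10:89332427-89332452, plus strand, 94 bases before the start): agattctgTTTCAGTTTCccctcaag
MX1 (chr21:41420561-41420586, plus strand, 12 bases after the start): gcagaaatGAAACCGAAActgaattg
IFI6 (chr1:27672331-27672356, minus strand, 156 bases before the start): agagagggGAAAATGAAActctgcag
IFIH1 (chr2:162318688-162318713, minus strand, 21 bases before the start): agagaatcGAAACAGAAAccaaagtc
OAS3 (chr12:112938323-112938348, plus strand, 143 bases before the start): aaagaaacGAAACTGAAAgcagggaa
IFIT5 (chr10:89414515-89414540, plus strand, 45 bases before the start): ctattaagTTTCGGTTTCtgaagctt
EIF2AK2 (chr2:37156969-37156994, minus strand, repeat running across the start from 6 bases before it): tccaagggGAAAACGAAActgagaac
DTX3L (chr3:122564324-122564349, plus strand, repeat running across the start from 6 bases before it): agggaagcGAAACTGAAActttgcgc
PARP9 (chr3:122564324-122564349, minus strand, 41 bases before the start): gcgcaaagTTTCAGTTTCgcttccct
The last 2 runs are the same 26 bases read from both strands, since DTX3L and PARP9 are neighbours transcribed in opposite directions. The gamma-activated site, the element of the interferon gamma response, was searched as TTC, any 3 bases, then GAA. It occurred in the windows of 11 members (27.5%), against 9.38% of all genes. A match describes the letters in this window and does not show that a factor binds there.

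Sequencing depth was even, with 20739025 to 21380480 estimated counts per library. Levels of a gene are given as CPM, counts per 1000000 counts after TMM scaling, and intervals are 95% intervals of counting error only. ZFP36L1 itself stood at 234, 223 and 206 CPM in tet-control at 0, 6 and 24 h, and at 220, 3127 and 3133 CPM in tet-ZFP36L1, so the labels match its level. The J82 cells expressed KRT8, KRT18 and VIM, the least of them at 5206 counts in any library. UPK2, a urothelial differentiation marker, was at 0 counts throughout. These belong to a list of 13 J82, urothelial or epithelial markers, of which 7 reached the count minimum. Between the lines at 0 h (tet-ZFP36L1 against tet-control), the 7 had log2 differences from -1.67 to 1.09, with a median of 0.85. The tet-ZFP36L1 library of 24 h stood apart in breadth, with 15694 genes at 10 or more counts against 14514 to 14955 in the other 5, and with a TMM factor of 1.11 against 0.941 to 1.01. Each 24 h result of tet-ZFP36L1 rests on it and cannot be had without it. In bulk RNA, fewer cells expressing a gene and less RNA per cell cannot be told apart.

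After 24 h of doxycycline, most of the members stood higher in tet-ZFP36L1 than at 0 h, and tet-control showed no such shift. Of the 38 members above the count minimum, 21 were at least 2-fold higher (at least 1 on the log2 scale of CPM + 0.5) and 0 at least 2-fold lower in tet-ZFP36L1 at 24 h against 0 h. Over all 13457 genes, 4.21% were at least 2-fold higher and 5.92% at least 2-fold lower. Without TMM factors these shares were 6.01% and 3.98%, and with deposited TPM 5.16% and 4.53%, while 24 and 23 members were higher. The median log2 change of the members was 1.08, with a range from -0.31 to 5.20, and that of all genes was 0.01. In tet-control at 24 h, 0 of the 38 members were 2-fold higher or lower, against 0.639% and 0.706% of all genes, and their median log2 change was 0.02.

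The same pattern showed in which library was highest. For 33 of the 38 members the tet-ZFP36L1 library of 24 h was the highest of the 6, which held for 24.3% of all genes. OASL and EPSTI1, both among the 33, passed the count minimum only through that library. Among the other 36 members, 19 were at least 2-fold higher, with a median of 1.07. The summed level of all 48 members, as deposited TPM (transcript abundance scaled for length and depth), was 885, 802 and 917 in tet-control at 0, 6 and 24 h. In tet-ZFP36L1 it was 1102, 1006 and 2161 TPM.

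**Figure D1:**
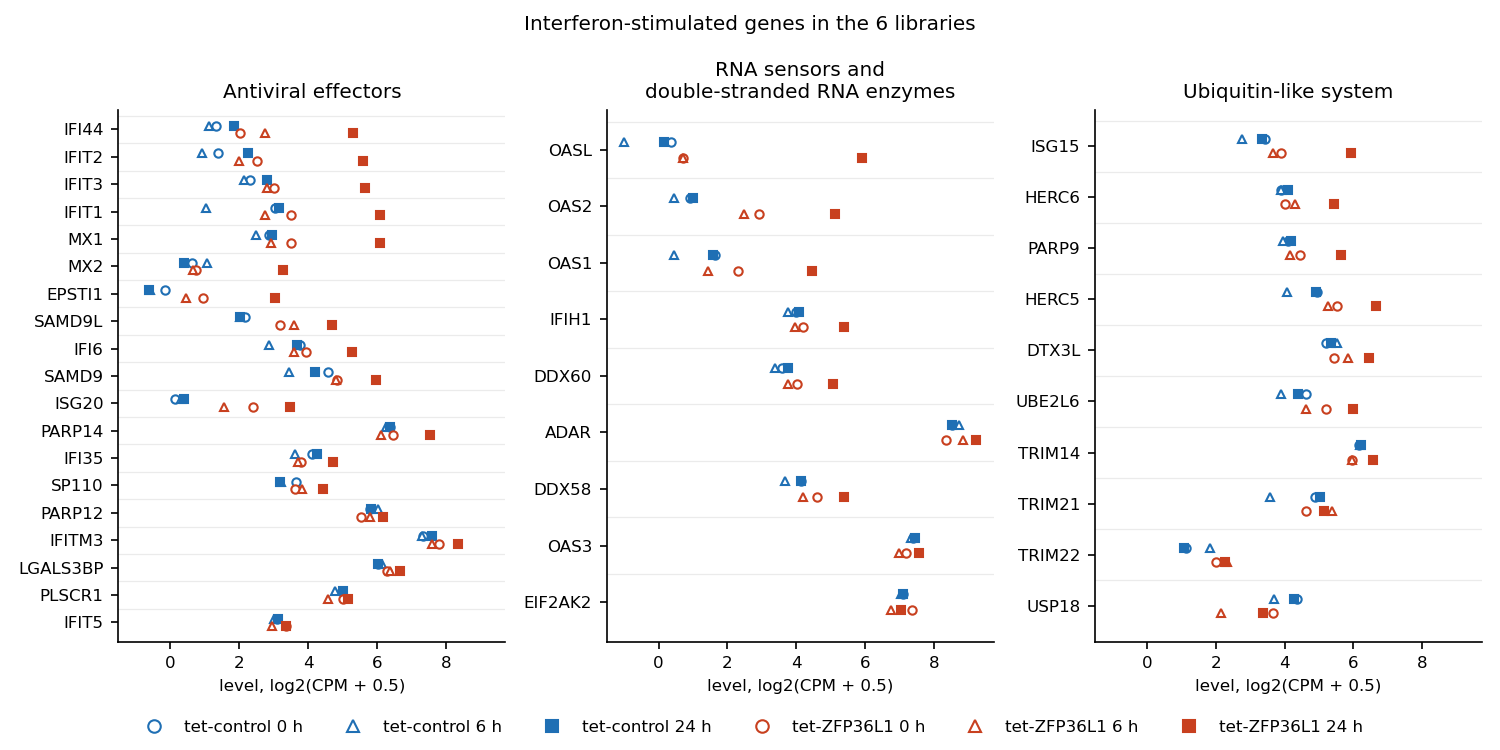
Level of the 38 members above the count minimum in each of the 6 libraries, as log2(CPM + 0.5), in 3 panels by role and sorted by the tet-ZFP36L1 change at 24 h. Blue marks are tet-control, red marks tet-ZFP36L1, and each mark is 1 library; the filled red square of 24 h is the rightmost mark for 33 of the 38 members.

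Other cell types were checked beside this result. The 14 leukocyte markers summed to 46 to 305 counts in the other 5 libraries and to 658 in tet-ZFP36L1 at 24 h, where 9 of the 14 were at 0. CD68, which shares 77.3% of its 31-base words with another gene, held 616 of the 658 counts and ITGAM held 26. PTPRC, which marks all leukocytes, was at 0 counts in that library, a value that allows up to 3. The 6 fibroblast markers summed to 314, 176 and 206 counts in tet-control and to 313, 468 and 408 in tet-ZFP36L1, and the 4 endothelial markers to 1 to 20 counts per library. The part of CD68, ITGAM and the fibroblast markers in the result was not tested.

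Among the antiviral effectors, 12 of the 19 above the minimum were at least 2-fold higher in tet-ZFP36L1 at 24 h, against 4.21% of all genes. EPSTI1, 1 of the 12, passed the count minimum only through that library. The median log2 change of the 19 was 1.14. The IFIT proteins, which bind viral RNA ends and hinder translation, held 3 of the 4 largest changes of this role. IFIT2 (ENSG00000119922, chromosome 10) stood at 2.13, 1.39 and 4.30 CPM in tet-control at 0, 6 and 24 h, and at 5.21, 3.47 and 47.6 CPM in tet-ZFP36L1. Its tet-ZFP36L1 level at 24 h was 9.15-fold that at 0 h (interval 7.49 to 11.3). IFIT3 measured 4.52, 3.91 and 6.48 CPM in tet-control against 7.56, 6.48 and 50.2 CPM in tet-ZFP36L1, a ratio of 6.64 (5.60 to 7.91) between 24 h and 0 h. For both genes 1 library, tet-ZFP36L1 at 24 h, stood far above the other 5. IFIT1 read 7.69, 1.55 and 8.35 CPM in tet-control and 10.9, 6.17 and 68.2 CPM in tet-ZFP36L1. Its 24 h ratio was 6.26 (5.43 to 7.24), and its lowest library was tet-control at 6 h. IFIT5, the fourth member of the family, stood apart. It measured 8.09, 7.49 and 8.30 CPM in tet-control and 9.72, 7.31 and 9.70 CPM in tet-ZFP36L1, and its 24 h ratio of 0.998 (0.818 to 1.22) covers no change, although 3 copies of the GAAA repeat lie in its promoter window.

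IFI44, a cytoplasmic protein induced by type I interferon, showed the largest change among the effectors above the minimum. It stood at 1.99, 1.66 and 3.09 CPM in tet-control and at 3.54, 6.17 and 39.0 CPM in tet-ZFP36L1. The 24 h level in tet-ZFP36L1 was 11.04-fold that at 0 h (8.67 to 14.2), and its 6 h level was already the highest of the remaining 5 libraries. MX1 and MX2 are dynamin-like GTPases that trap viral nucleocapsids. MX1 (ENSG00000157601, chromosome 21) read 6.75, 5.14 and 7.29 CPM in tet-control and 10.95, 7.15 and 68.0 CPM in tet-ZFP36L1, a 24 h ratio of 6.21 (5.39 to 7.18). MX2, its neighbour on chromosome 21, rested on few counts, at 1.04, 1.61 and 0.810 CPM in tet-control and 1.18, 1.09 and 9.15 CPM in tet-ZFP36L1. Its ratio was 7.77, with a wide interval (5.07 to 12.4), and the other 5 libraries lay between 0.810 and 1.61 CPM. This ratio mixes transcripts of different behaviour. MX2-201, which codes for 715 codons, had 0, 0 and 0 counts in tet-control and 1.958, 0 and 136.3 in tet-ZFP36L1. MX2-212, with no coding sequence listed, held 51.0% to 81.3% of the MX2 counts in the other 5 libraries. In tet-ZFP36L1 at 24 h it held 3.62%.

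The other effectors 2-fold higher were EPSTI1, SAMD9L, IFI6, SAMD9, ISG20 and PARP14. SAMD9L, which restrains poxviruses, was at 4.02, 3.59 and 3.59 CPM in tet-control and 8.64, 11.6 and 25.4 CPM in tet-ZFP36L1, a 24 h ratio of 2.94 (2.48 to 3.51). All 3 of its tet-ZFP36L1 libraries stood above all 3 of tet-control. The same order held for ISG20, an RNA exonuclease, with 0.596, 0.749 and 0.810 CPM in tet-control and 4.76, 2.44 and 10.7 CPM in tet-ZFP36L1 (ratio 2.25, 1.77 to 2.88). EPSTI1 had 8 counts or fewer in each tet-control library and 29, 17 and 170 counts in tet-ZFP36L1. PARP14, an ADP-ribosyltransferase, was at 77.0 to 83.2 CPM in tet-control and 88.5, 69.2 and 187.6 CPM in tet-ZFP36L1 (ratio 2.12, 2.00 to 2.24). Its 24 h library stood at over 2 times each of the others. The 7 effectors short of 2-fold had ratios from 0.998 to 1.95. PLSCR1, a phospholipid scramblase, was at 31.2, 27.1 and 31.6 CPM in tet-control and 31.7, 23.4 and 35.2 CPM in tet-ZFP36L1, and its ratio of 1.11 (0.999 to 1.23) was near 1.

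The IFITM proteins block virus entry at membranes, and 1 of the 3 passed the count minimum. IFITM3 measured 162.7, 157.3 and 194.3 CPM in tet-control and 222.7, 195.1 and 324.2 CPM in tet-ZFP36L1, a 24 h ratio of 1.46 (1.40 to 1.51). IFITM1 had 4 to 5 counts in tet-control and 11, 5 and 25 in tet-ZFP36L1, and IFITM2 had 8 to 19 counts in every library. The 3 genes share 31.5% to 48.6% of their 31-base words with other genes, mostly one another, so the split among them is uncertain.

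Of the 10 members under the count minimum, 9 were effectors and 1, DHX58, a sensor. Summed over the 10, the counts were 55, 40 and 58 in tet-control and 29, 33 and 276 in tet-ZFP36L1. DHX58 held 29, 18 and 37 of those in tet-control. RSAD2, or viperin, which makes a chain-terminating nucleotide, had 4, 3 and 3 counts in tet-control and 0, 0 and 105 in tet-ZFP36L1. Against a floor of 3 counts at 0 h, its 24 h level was at least 32.6-fold higher with the 105 counts taken as exact. The binomial interval of 105 against 0 counts, which does not use that floor, had a lower limit of 26.1. IFI44L had 0, 0 and 1 counts in tet-control and 0, 1 and 25 in tet-ZFP36L1, at least 7.77-fold higher by the same floor. Its interval against 0 counts had a lower limit of 5.86. BST2, or tetherin, which holds budding virions at the cell surface, had 0, 1 and 0 counts in tet-control and 0, 1 and 20 in tet-ZFP36L1. By the floor it was at least 6.21-fold higher, and its interval against 0 counts had a lower limit of 4.60. XAF1 had 3 to 8 counts in 5 libraries and 35 in tet-ZFP36L1 at 24 h, and CMPK2 had 3 or fewer in 5 and 25 in that one. RTP4 stayed at 4 counts or fewer and IFI27 at 1 or fewer, so no change in them was detectable at this depth.

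**Figure D2:**
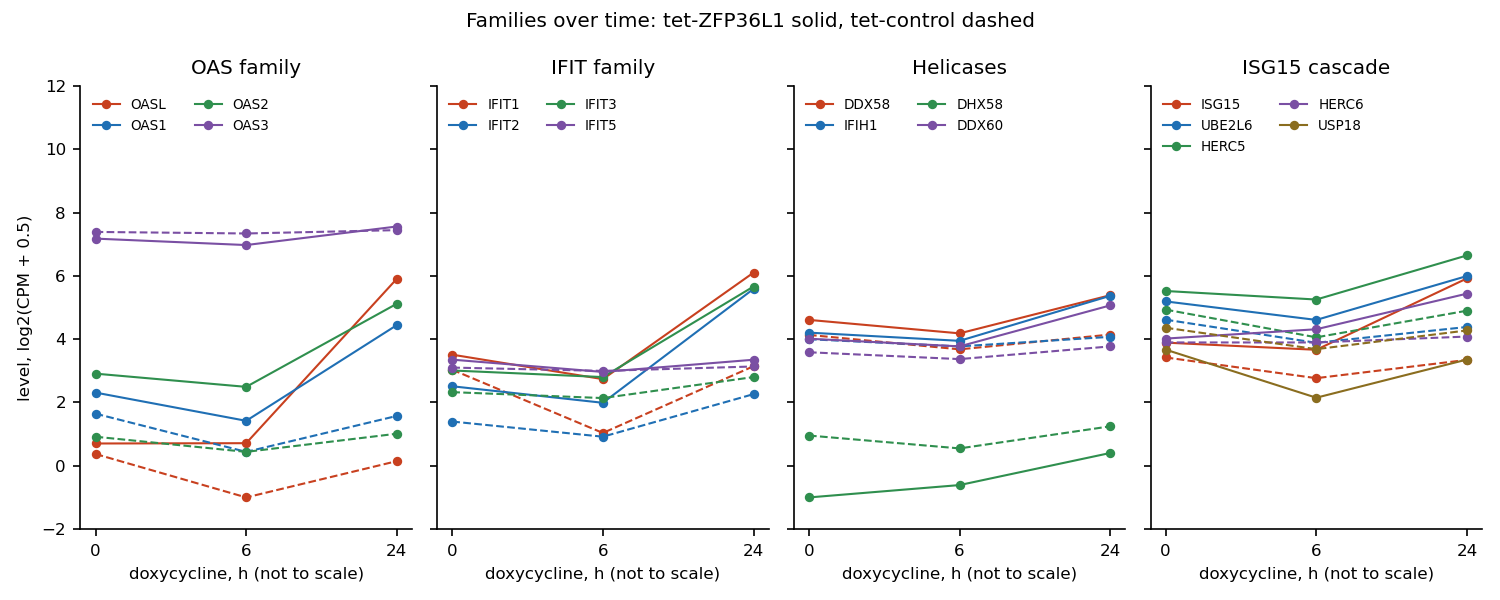
Level over time, as log2(CPM + 0.5), for the OAS family, the IFIT family, helicases, and the ISG15 cascade; solid lines are tet-ZFP36L1, dashed lines tet-control, and each point is 1 library. The solid lines of OASL, OAS1, OAS2, IFIT1, IFIT2, IFIT3 and ISG15 turn upward between 6 and 24 h and end well above their 0 h levels. Those of IFIT5, OAS3 and USP18 also turn upward but end near their 0 h levels.

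The RNA sensors and double-stranded RNA enzymes included OASL, which had the largest log2 change among the 38 members above the minimum, a minimum it passed only through tet-ZFP36L1 at 24 h. OASL (ENSG00000135114, GRCh38 chromosome 12, 121019111 to 121039242, minus strand) is a ubiquitin-like relative of the OAS enzymes that enhances RIG-I signalling. It had 16, 0 and 12 counts in tet-control and 23, 22 and 1302 counts in tet-ZFP36L1. In CPM this was 0.794, 0 and 0.607 against 1.13, 1.14 and 59.6, so the 24 h library alone was high and 6 h equalled 0 h. The 24 h ratio in tet-ZFP36L1 was 52.8 (35.0 to 83.5). Nearly all of it came from the full-length transcript of 514 codons (OASL-201), with 1266 of the 1302 counts at 24 h.

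OAS1, OAS2 and OAS3 make 2',5'-linked oligoadenylates, and they lie side by side on chromosome 12. OAS2 measured 1.39, 0.856 and 1.52 CPM in tet-control and 7.02, 5.13 and 34.3 CPM in tet-ZFP36L1, with a 24 h ratio of 4.88 (4.08 to 5.88). OAS1 read 2.63, 0.856 and 2.48 CPM in tet-control and 4.47, 2.18 and 21.3 CPM in tet-ZFP36L1, with a ratio of 4.76 (3.80 to 6.03). Both were highest in tet-ZFP36L1 at 24 h and lowest in tet-control at 6 h. OAS3, the largest of the enzymes, stood at 167, 162 and 174 CPM in tet-control and at 144, 125 and 188 CPM in tet-ZFP36L1. Its ratio of 1.31 (1.24 to 1.37) was small beside those of its neighbours, although its window holds 2 copies of the GAAA repeat.

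Helicases make up the RIG-I-like group of sensors. IFIH1, or MDA5, which senses long double-stranded RNA, was at 15.5, 13.2 and 16.3 CPM in tet-control and 17.97, 14.9 and 40.9 CPM in tet-ZFP36L1, a ratio of 2.27 (2.01 to 2.57). DDX58, or RIG-I, which senses 5'-triphosphate RNA, was at 17.1, 12.3 and 17.2 CPM in tet-control and 23.9, 17.7 and 41.4 CPM in tet-ZFP36L1, a ratio of 1.73 (1.55 to 1.94). DDX60, a related helicase, was at 11.5, 9.85 and 13.2 CPM in tet-control and 15.7, 13.2 and 33.0 CPM in tet-ZFP36L1, a ratio of 2.11 (1.85 to 2.41). In all 3, tet-ZFP36L1 at 24 h was the highest library. DHX58, or LGP2, a regulator of the other 2 receptors, ran against them in level, with 29, 18 and 37 counts in tet-control and 0, 3 and 18 in tet-ZFP36L1. Within tet-ZFP36L1 its 24 h level was at least 5.59-fold higher than at 0 h, against the floor of 3 counts. The interval of 18 against 0 counts, without that floor, had a lower limit of 4.10.

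EIF2AK2, or PKR, the kinase that stops translation on binding double-stranded RNA, was the sensor with a lower level at 24 h. It read 137, 132 and 137 CPM in tet-control and 162, 107 and 131 CPM in tet-ZFP36L1, a 24 h ratio of 0.804 (0.764 to 0.846). In CPM its highest library was tet-ZFP36L1 at 0 h and its lowest tet-ZFP36L1 at 6 h. The order differed in TPM, with 36.0, 35.1 and 31.4 in tet-control and 35.0, 25.8 and 21.8 in tet-ZFP36L1. By that measure the highest library was tet-control at 0 h and the lowest tet-ZFP36L1 at 24 h, so the direction between 6 and 24 h is uncertain. ADAR, which edits adenosine to inosine in double-stranded RNA, stood at 370, 421 and 367 CPM in tet-control and at 324, 454 and 596 CPM in tet-ZFP36L1. Unlike most sensors it was already higher at 6 h (ratio 1.40, 1.36 to 1.45) and higher still at 24 h (1.84, 1.79 to 1.90).

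ADAR makes a long protein, p150, from an interferon-inducible promoter and a short protein, p110, from a constitutive one. The transcript coding for the long protein (ADAR-202, 1226 codons) had 31.9, 32.2 and 36.6 TPM in tet-control and 31.7, 44.7 and 63.6 TPM in tet-ZFP36L1. The transcript coding for the short protein (ADAR-201, 931 codons) had 33.3, 37.9 and 28.3 TPM in tet-control and 29.2, 37.8 and 57.2 TPM in tet-ZFP36L1. On the log2 scale the 24 h changes in TPM were 0.99 for the long and 0.96 for the short transcript. The transcripts share most of their sequence, so the split between them rests on the reads that do not fall in shared parts.

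**Figure D3:**
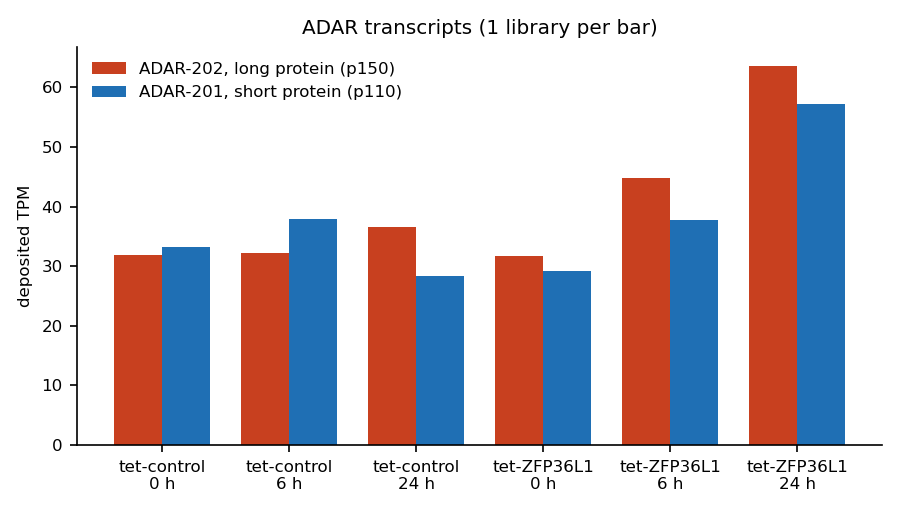
Deposited TPM of the ADAR transcripts coding for the long protein (red) and the short protein (blue) in the 6 libraries, 1 library per bar, with the axis starting at 0. Both reach their highest value in tet-ZFP36L1 at 24 h, at 63.6 and 57.2 TPM.

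In the ubiquitin-like system 4 of the 10 members were at least 2-fold higher in tet-ZFP36L1 at 24 h, against 4.21% of all genes. The median log2 change of the 10 was 0.90. ISG15 itself (ENSG00000187608, chromosome 1) measured 10.2, 6.31 and 9.67 CPM in tet-control and 14.3, 12.2 and 60.0 CPM in tet-ZFP36L1, a ratio of 4.19 (3.69 to 4.77). UBE2L6 and HERC5 act in attaching it to other proteins. UBE2L6, the conjugating enzyme, was at 24.0, 14.3 and 20.4 CPM in tet-control and 36.1, 23.9 and 63.3 CPM in tet-ZFP36L1, a ratio of 1.75 (1.60 to 1.92). HERC5, the main human ISG15 ligase, was at 30.1, 16.2 and 29.4 CPM in tet-control and 45.5, 37.6 and 99.7 CPM in tet-ZFP36L1, a ratio of 2.19 (2.03 to 2.37). HERC6, a relative of HERC5, was at 14.4, 14.4 and 16.5 CPM in tet-control and 15.7, 19.4 and 42.9 CPM in tet-ZFP36L1, a ratio of 2.73 (2.40 to 3.11). For ISG15, UBE2L6, HERC5 and HERC6, tet-ZFP36L1 at 24 h was the highest library.

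USP18, the protease that removes ISG15 and dampens interferon receptor signalling, was lower at 24 h than at 0 h in tet-ZFP36L1. It rose there between 6 and 24 h but stayed below its 0 h level. It stood at 20.1, 12.4 and 18.9 CPM in tet-control and at 12.2, 3.94 and 9.75 CPM in tet-ZFP36L1. Within tet-ZFP36L1 its ratio to 0 h was 0.322 (0.246 to 0.418) at 6 h and 0.797 (0.661 to 0.961) at 24 h. Its 3 lowest libraries in CPM were those of tet-ZFP36L1, by a narrow margin (12.2 against 12.4 CPM). In TPM, tet-control at 6 h (7.52) lay below tet-ZFP36L1 at 0 h (8.12). USP18 shares 29.5% of its 31-base words with other genes, so its level is uncertain to that extent.

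PARP9 and DTX3L, partners in an ADP-ribosylating ubiquitin ligase that share the promoter element printed above, had similar ratios. PARP9 was at 16.7, 15.04 and 17.8 CPM in tet-control and 21.3, 17.2 and 49.4 CPM in tet-ZFP36L1 (ratio 2.32, 2.07 to 2.60). DTX3L was at 36.3, 45.8 and 40.3 CPM in tet-control and 42.9, 56.8 and 86.1 CPM in tet-ZFP36L1 (ratio 2.01, 1.85 to 2.18). At 6 h their directions differed, with DTX3L above 0 h in both lines and PARP9 below it. The 3 TRIM members had smaller 24 h ratios. They were 1.52 for TRIM14, 1.45 for TRIM21 and 1.23 for TRIM22, and TRIM22 had 1.69, 3.05 and 1.62 CPM in tet-control and 3.54, 4.56 and 4.35 CPM in tet-ZFP36L1.

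**Figure D4:**
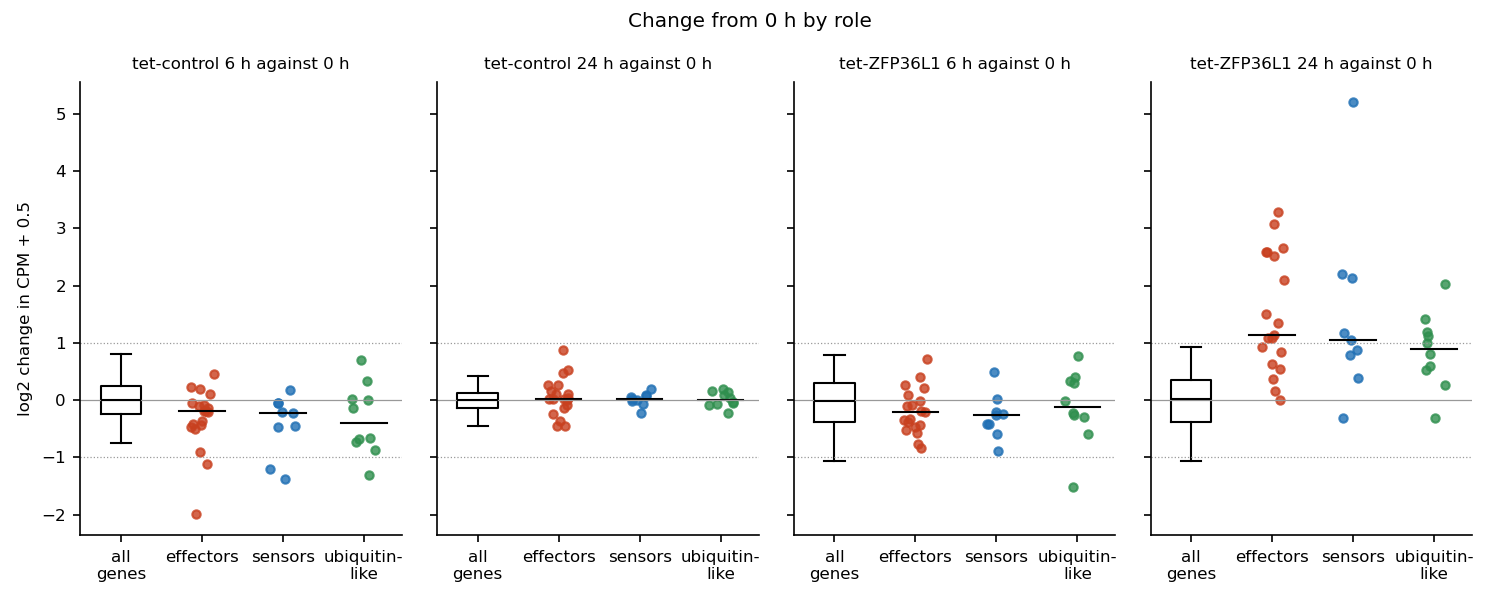
Log2 change from 0 h in CPM + 0.5 for the members above the count minimum, by role (coloured points, 1 gene each, black bar at the median), beside a box of all 13457 genes (median, quartiles, whiskers at the 5th and 95th percentiles). Dotted lines mark 2-fold; only in tet-ZFP36L1 at 24 h do members lie above the upper dotted line.

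At 6 h, when ZFP36L1 had already reached its 24 h level, no member was 2-fold higher in either line. In tet-ZFP36L1, 0 of the 38 were at least 2-fold higher and 1, USP18, at least 2-fold lower at 6 h against 0 h, where 2.51% and 5.67% of all genes were. The median log2 change was -0.23, with 27 of the 38 members below 0. Over all genes the median was -0.01, with 6844 of 13457 below 0. Between 6 and 24 h in the same line, a comparison added after the values were seen, 25 of the 38 were at least 2-fold higher and 0 lower, against 5.59% and 1.72% of all genes, with a median of 1.25. Without TMM factors the shares of all genes were 8.26% and 1.00%. Leaving out OASL and EPSTI1, which passed the count minimum only through the 24 h library, 23 of 36 members were higher, with a median of 1.21.

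Members were also lower at 6 h in tet-control. Of the 38, 5 fell short of their own 0 h level by at least 2-fold and 0 exceeded it by as much, against 2.54% and 3.08% of all genes, and the median log2 change was -0.21. The 5 were IFIT1, OAS1, OASL, SAMD9 and TRIM21. Leaving out OASL and EPSTI1, 4 of 36 were at least 2-fold lower. For 22 of the 38 members the tet-control library of 6 h was the lowest of the 6, which held for 18.2% of all genes. In IFIT1 the ratio of 6 h to 0 h in tet-control was 0.202 (0.131 to 0.301), and in OAS1 it was 0.325 (0.174 to 0.578). Both genes were back near their 0 h level in tet-control at 24 h. TRIM21, a cytosolic antibody receptor and ubiquitin ligase, read 28.9, 11.4 and 32.1 CPM in tet-control. In tet-ZFP36L1 it read 24.0, 41.4 and 34.7 CPM, so the lines moved in opposite directions at 6 h. In TPM its fall in tet-control was smaller, from 22.4 at 0 h to 14.4 at 6 h, which is short of 2-fold.

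Against tet-control, most members of tet-ZFP36L1 also stood somewhat higher before doxycycline. At 0 h, 5 of the 38 were at least 2-fold higher and 0 lower, against 5.90% and 3.11% of all genes. The median log2 difference was 0.30, with 30 of the 38 above 0, and that of all genes was 0.01. The 5 were OAS2, ISG20, EPSTI1, IFIT2 and SAMD9L. OAS2 was 5.05-fold higher (3.35 to 7.87) and ISG20 7.997-fold higher (4.38 to 16.01) in tet-ZFP36L1 at 0 h. At 6 h, 11 were at least 2-fold higher and 1 lower, against 5.74% and 6.20% of all genes. At 24 h, 26 were at least 2-fold higher and 0 lower, against 10.3% and 7.92% of all genes, with a median of 1.33. The shares of all genes were 13.8% and 5.31% without TMM factors, and 13% and 4.94% with TPM. Leaving out OASL and EPSTI1, 4, 9 and 24 of 36 members were higher at 0, 6 and 24 h, with a median of 1.30 at 24 h.

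The induction difference subtracts the log2 change of tet-control from that of tet-ZFP36L1, so it takes out the gap at 0 h and any change that both lines shared. A member was counted when this difference and the own change in tet-ZFP36L1 were both at least 1 in the same direction. At 24 h, 19 of the 38 were counted as higher and 0 as lower, against 3.31% and 4.70% of all genes, with a median difference of 1.07. Without TMM factors 22 members and 4.87% and 3.11% of all genes were counted, and with TPM 21 members and 4.10% and 3.27%. Without OASL and EPSTI1 it was 17 of 36. The difference was 5.43 for OASL (4.20 to 6.66), 2.76 for IFI44 (2.09 to 3.44), 2.48 for IFIT1 (2.10 to 2.86) and 2.11 for ISG15 (1.77 to 2.44). ISG20 and DDX60, which passed 2-fold in their own change, had differences of 0.83 and 0.87. At 6 h, 0 members were counted in either direction, against 0.921% and 2.62% of all genes, and the median difference was 0.01. These comparisons share the 0 h libraries, so they are not independent of one another.

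**Figure D5:**
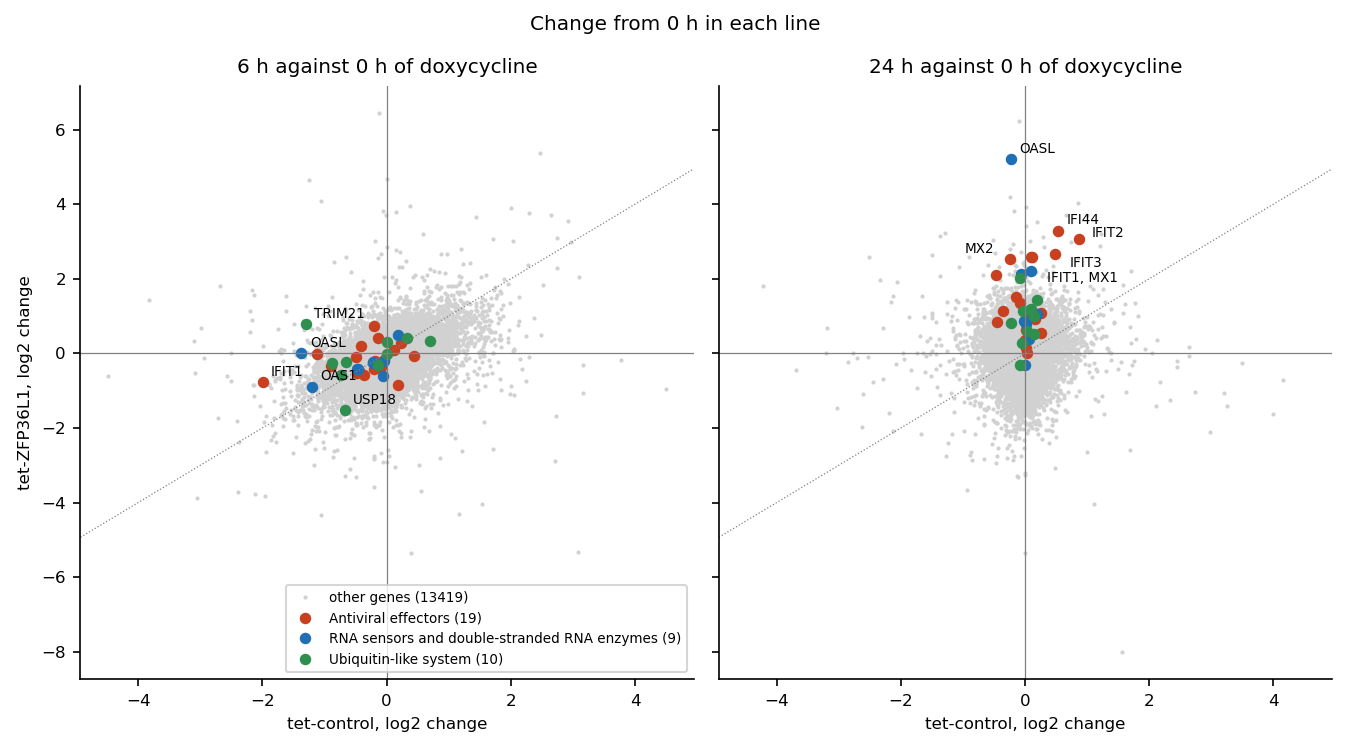
Log2 change from 0 h in tet-control (horizontal) and tet-ZFP36L1 (vertical) at 6 h and 24 h for all 13457 genes (grey) and the members by role (coloured); the dotted line marks equal change. At 24 h the members lie above 0 on the vertical axis for 35 of 38, with OASL at 5.20, and between -0.46 and 0.87 on the horizontal axis.

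The order of the members by level, compared per length as TPM, shifted in tet-ZFP36L1. IFITM3 ranked first in every library, at 462 TPM at first and 736 TPM after 24 h in that line. ISG15 went from rank 8 (35.0 TPM) to rank 2 (154 TPM), IFI44 from rank 29 (4.87 TPM) to rank 8 (55.3 TPM), and OASL from rank 39 (0.770 TPM) to rank 12 (45.5 TPM). ADAR, at rank 2 with 72.8 TPM, stood at rank 3 at 24 h with 140.7 TPM.

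Members with and without the GAAA repeat had similar median changes, and the difference was not tested. Of the 32 members above the minimum that had a window, 24 held the repeat, and 14 of these were at least 2-fold higher in tet-ZFP36L1 at 24 h, with a median log2 change of 1.08. The 8 without it had a median of 0.91, and 3 were 2-fold higher. Among the other genes above the minimum, 347 held the repeat, of which 5.48% were at least 2-fold higher, and 9381 did not, of which 3.53% were. The median log2 change was 0.04 for the former and -0.01 for the latter.

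ZFP36L1 binds AU-rich elements, and TATTTAT, a core of such elements, was searched in the 3' UTR of the most abundant transcript of each member. It was found in 8 of 38 members (21.1%) against 27.6% of 11385 genes. These were DDX60, EIF2AK2, IFIT2, IFIT3, IFIT5, OASL, SAMD9L and USP18. The OASL transcript is 2085 bases in the files and 3266 in the annotation searched, so its element may lie outside the form that was counted. Over all genes, the median log2 change in tet-ZFP36L1 of those with the element was -0.25 at 6 h and -0.30 at 24 h, and that of genes without it was 0.04 and 0.08. The 8 members had medians of -0.32 at 6 h and 1.28 at 24 h, and 5 of them were 2-fold higher at 24 h, against 4.21% of all genes. OASL, 1 of the 5, passed the count minimum only through tet-ZFP36L1 at 24 h. The 30 members without the element had medians of -0.21 and 1.08, and 16 of them were 2-fold higher at 24 h. The difference between members with and without the element was not tested. The members with the element thus included both IFIT2, among the largest changes, and EIF2AK2 and USP18, which were lower at both times.

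Genes that act before and beside the members were read from lists of their own. No interferon gene was measurable: none of 20 ligand genes reached the count minimum, they summed to 1 to 7 counts per library, and IFNB1 was at 0 in each. Of the 6 receptor chains, 0 passed 2-fold in tet-ZFP36L1 at 24 h; IFNAR2 had a log2 change of 0.79 and IFNAR1 of -0.37. Of 14 measured JAK, STAT and IRF genes, 2 were at least 2-fold higher and 0 lower, against 4.21% and 5.92% of all genes. IRF7, which drives interferon alpha genes, stood at 13.3, 13.3 and 15.9 CPM in tet-control and 15.9, 25.4 and 45.6 CPM in tet-ZFP36L1. IRF9, which shares 49.3% of its 31-base words with other genes, stood at 8.59, 14.7 and 11.04 CPM in tet-control and 14.04, 13.6 and 37.3 CPM in tet-ZFP36L1. STAT2 had a log2 change of 0.81. Beyond the 48, 40 other interferon-induced genes were measured. At 24 h, 11 of them were at least 2-fold higher and 0 lower, against the same shares of all genes, with a median log2 change of 0.50. GBP1, a guanylate-binding GTPase, led them and differed in timing from most of the members. It stood at 9.73, 15.6 and 11.1 CPM in tet-control and 11.98, 53.0 and 56.5 CPM in tet-ZFP36L1.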

How the data were processed

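Estimated counts and TPM per transcript were deposited for each of the 6 libraries (1 per group). Per the submitters' processing notes, kallisto, DESeq2 and the build hg19 were used (no versions). The deposited estimated counts need not be whole, since reads are divided among transcripts; the deposited TPM values are scaled for length and depth by the authors. Strand use: not given in the sources used here. Transcripts were matched to GENCODE 29 (GRCh38) by identifier (181854 of 196354; 5.12% to 5.47% of counts were unmatched and left out), summed per gene and rounded. Gene positions are those of GRCh38, and no coordinate was converted.

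Scaling used TMM factors (edgeR 4.0.16, R 4.3.3) from genes averaging 10 or more counts, and changes are in log2(CPM + 0.5), which understates changes of low genes. Ratios are of scaled CPM with exact binomial 95% intervals, and induction differences have delta-method intervals; both cover counting error only, and reads lacking molecular identifiers may be copies of 1 molecule. With 1 library per group no count test was run. The 48 members and all lists were chosen with earlier results of these data known. Genes named are, per role, the 6 largest and 2 smallest changes, the families, and members 2-fold apart at 0 h, beside others named for a stated reason. The interval and counting scripts were tested on simulated data. The alternatives comprised the size factors of DESeq2 1.42.0, CPM with no TMM factor, TPM, other pseudocounts, count minimums and thresholds, and protein-coding genes alone. Promoter windows are those of RefSeq. Genes not in the tables used (IFNA5, IKBKE, CCL5, PECAM1) were not analysed here, and some listed genes are not reported here. Python 3.11.15 was used with numpy 2.4.6, pandas 2.3.3, scipy 1.17.1 and matplotlib 3.10.9.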

Additional observations from a re-analysis of the deposited data

Results flagged for a closer look

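4 members moved in opposite directions in the lines, each change beyond its counting interval. Only the 38 members above the count minimum were searched, so the share of all genes is not known. The count is therefore not a result about the members. The difference between the lines was not tested, since each group had 1 library. SAMD9 at 24 h was higher in tet-ZFP36L1 (log2 change 1.14) and lower in tet-control (-0.36), an induction difference of 1.502. It stood at 23.2, 10.4 and 18.02 CPM in tet-control and at 28.04, 27.8 and 62.6 CPM in tet-ZFP36L1. SP110 at 24 h had changes of 0.83 and -0.46, a difference of 1.29. For UBE2L6 at 24 h the changes were 0.80 and -0.23, a difference of 1.03. TRIM21 was the case at 6 h, with changes of 0.78 in tet-ZFP36L1 and -1.30 in tet-control, a difference of 2.08. In TPM the fall of TRIM21 in tet-control was smaller, from 22.4 to 14.4. Its most abundant transcript, TRIM21-201, had 134 counts in tet-control at 6 h against 540 to 557 at the other times of that line.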

How the results depend on the processing

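At 24 h the count of members at least 2-fold higher than at 0 h in tet-ZFP36L1 lay between 14 (mean count of at least 200) and 29 (1.5-fold threshold) over the 12 alternatives, and the count by induction difference between 13 and 28. None of these counts left 1.5 times the reported one. With the mean count of at least 200 and the 1.5-fold threshold, 1.86% and 13.6% of all genes were higher against 0 h. By induction difference the share of all genes lay between 0.817% (pseudocount 5) and 10.8% (1.5-fold threshold). No recomputed value of at least 1 on the log2 scale changed sign, and smaller values were not checked for sign. In comparisons with tet-ZFP36L1 at 24 h, plain CPM moved the median of all genes up to 0.16 to 0.17 and TPM up to 0.09 to 0.17, so changes there are relative to these shifts. Of the recomputed changes of single members, 2114 stayed within 0.2 on the log2 scale and 142 moved further, none with a change of sign past 2-fold.

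Small counts moved, here out of 38 members unless the count minimum differed. With TPM, 2 members were lower in tet-ZFP36L1 at 6 h, 2 were higher between lines at 0 h, and 1 was lower by induction difference at 6 h. The shares of all genes were 6.23%, 5.88% and 3.02%. A pseudocount of 0.1 gave 2 lower in tet-ZFP36L1 at 6 h, against 6.90% of all genes. A pseudocount of 2 gave 3 lower in tet-control at 6 h, and 2 and 7 higher between lines at 0 h and 6 h. Of all genes, 1.08%, 3.86% and 3.72% were called there. With a pseudocount of 5, 0 were lower in tet-ZFP36L1 at 6 h and 1 in tet-control at 6 h, against 2.26% and 0.357% of all genes. Between lines, 0 were higher at 0 h and 3 at 6 h, against 2.48% and 2.20%. Also between lines, 0 were lower at 6 h, against 3.01%, and the median at 24 h was 1.14. A mean count of at least 200 left 1 and 6 higher between lines at 0 h and 6 h, against 3.47% and 3.54% of all genes. With no minimum, 1 and 2 were lower between lines at 0 h and 6 h, against 1.64% and 3.14% of all genes. At a 1.5-fold threshold, 2 were higher and 5 lower in tet-ZFP36L1 at 6 h, against 10.2% and 15.9% of all genes. In tet-control, 1 was higher and 10 lower at 6 h (8.90% and 8.40% of all genes), and 1 was higher at 24 h (2.43%). Between lines at this threshold, 11 were higher and 1 lower at 0 h, against 11.7% and 8.59% of all genes. There, 17 were higher at 6 h (13.4% of all genes) and 1 lower at 24 h (19.3%). By induction difference at 6 h, 2 were higher and 2 lower, against 3.64% and 9.04%. A wider threshold or a smaller set of genes changes such counts by construction; the cause of the other moves was not tested.

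No paired analysis was possible because each group had 1 library and the labels carry no replicate numbers. Depth limits the 10 members under the count minimum and those with under 100 counts at 0 h, whose intervals are wide; variation between cultures is in no interval.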

Other observations

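Genes of upstream nucleic acid sensing were read beside the members. IFI16, a nuclear DNA sensor, had 10, 5 and 3 counts in tet-control and 198, 205 and 642 in tet-ZFP36L1, so the lines differed before doxycycline. CGAS, the cytosolic DNA sensor, stood at 32.4, 38.3 and 34.8 CPM in tet-control and at 37.9, 20.7 and 13.7 CPM in tet-ZFP36L1, lower at each step after doxycycline. The chemokine genes CXCL10 and CXCL11 had 2 counts or fewer in the other 5 libraries and 40 and 56 counts in tet-ZFP36L1 at 24 h.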
